A study of Mus musculus with 9 samples.

Results

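Cyclic AMP is made by adenylyl cyclases, broken down by phosphodiesterases (PDEs) and read out by protein kinase A (PKA), which is held at its substrates by A-kinase anchoring proteins (AKAPs). In cardiomyocytes, beta-adrenoceptors raise cAMP through the cyclases AC5 and AC6, and PKA then phosphorylates calcium channels, ryanodine receptors, phospholamban and myofilament proteins. PKA is a complex of regulatory and catalytic subunits. Binding of cAMP to the regulatory subunits frees the catalytic ones, and the regulatory dimer also carries the binding surface for AKAPs. The genes described here are all those with names of the type Adcy, Pde, Akap or Prka followed by an isoform number or letter, and they were chosen by name, not by their values. There are 52 such genes among 41710 gene names, namely 10 adenylyl cyclases, 23 PDEs, 6 PKA subunits and 13 AKAPs.

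Their transcripts were measured by next-generation sequencing of messenger RNA from whole hearts of male mice aged 8 months in the FVB/N background, with 1 library per heart and 3 libraries for each of 3 groups. The first group was Tg-RKIP mice, in which the alpha-MHC promoter drives a transgene for RKIP (the RAF kinase inhibitor protein, encoded by Pebp1) in the myocardium. The second group carried the label Tg-GRK2 (G protein-coupled receptor kinase 2), for which the promoter is not given in the sources used here. The third group was non-transgenic FVB controls. Both comparisons with controls share the same 3 FVB libraries.

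The RKIP gene Pebp1 had 252196 to 321666 reads per library in Tg-RKIP hearts, against 7140 to 8446 reads in FVB and 7198 to 8386 reads in the second group. Grk2 had 24.9 to 30.5 TPM in the Tg-GRK2-labelled libraries and 25.9 to 27.9 TPM in FVB (log2 fold change 0.05, edgeR adjusted p = 0.354), so its level does not show the labelled transgene, and these libraries are named by their label ("Tg-GRK2-labelled") throughout. TPM values divide reads by transcript length, scaled to the same total in each library, and are used here for levels. Log2 fold changes are those of read counts scaled by the TMM method of edgeR, called at a Benjamini-Hochberg adjusted p under 0.05, and "rose" and "fell" are used only for genes called. A value with ± is a mean with its SD over n = 3 libraries. Libraries held 25458108 to 33447654 reads. Mitochondrial genes took 22.4% to 23.2% of the reads in 6 libraries and 11.5% to 11.8% in those of Tg-RKIP. The airway gene Scgb1a1 had 0 reads in each FVB library, 388 to 510 in Tg-RKIP and 1085 to 1284 in the Tg-GRK2-labelled libraries, and summed over 5 erythrocyte markers the level was 3477 to 3645, 1665 to 1690 and 739 to 753 TPM in Tg-RKIP, Tg-GRK2-labelled and FVB hearts. The part of such tissue in the results below was not tested. The median log2 fold change of all 15504 genes tested between Tg-RKIP and FVB was 0.0085 with TMM, 0.38 with scaling to library size only and 0.43 on log2(TPM + 0.1), and small changes of either sign depended on this choice. In whole hearts, fewer cells of a type and less RNA per cell cannot be told apart.

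Of the 52 genes, 45 had enough reads to be tested. The other 7 were Adcy10, Akap14, Akap3, Akap4, Pde6a, Pde6b and Pde6c, which had at most 4 reads in any library, and Akap4 and Pde6c had 0 reads in all 9. Between Tg-RKIP and FVB hearts, 12 of the 45 genes rose, 27 fell and 6 were not called. Of all genes tested, 73.9% were called in this comparison, 36.8% being higher and 37.1% lower. The median log2 fold change of the cAMP genes was -0.34. A change of at least 1 on the log2 scale was called for 5 cAMP genes that rose (Adcy2, Pde1b, Pde3b, Prkar1b and Prkar2b) and for 7 that fell (Adcy8, Adcy9, Akap9, Pde11a, Pde1c, Pde4c and Pde4d), against 10.2% and 6.12% of all genes. The groups did not overlap in the normalised counts of 40 of the 45 genes, against 75.7% of all genes. With scaling to library size only, 18 of the 45 rose and 15 fell, and with limma on log2(TPM + 0.1) 18 of 41 rose and 13 fell. Of all genes, 9709 of 15504 were higher and 2650 lower with the former, and 8889 of 13478 higher and 1947 lower with the latter.

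**Figure D1:**
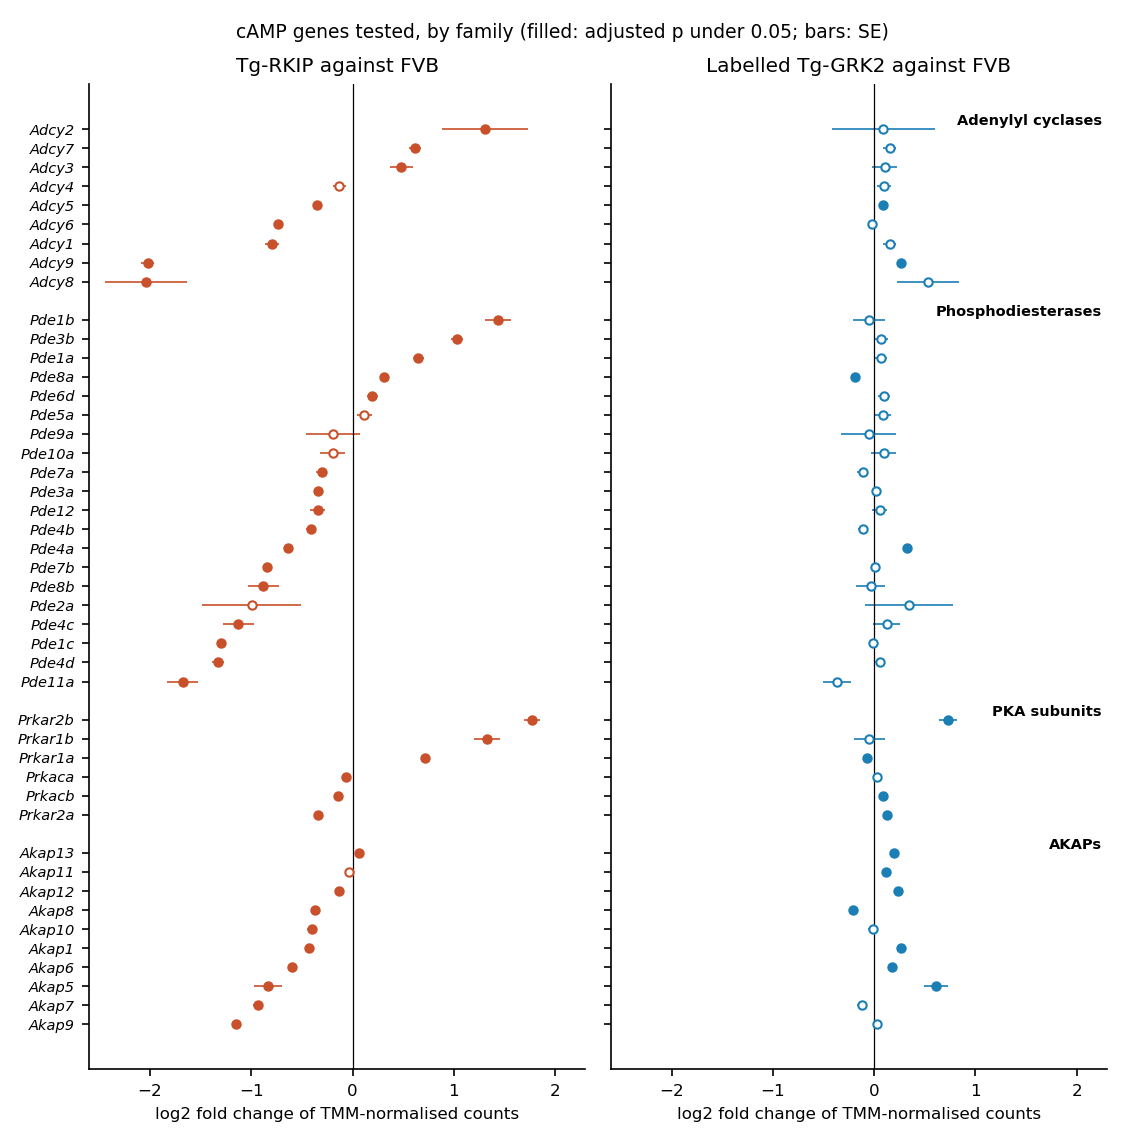
Log2 fold change of TMM-normalised counts (x axis) of the 45 cAMP genes tested (y axis, grouped by family), for Tg-RKIP against FVB (left) and for the Tg-GRK2-labelled libraries against FVB (right), as the edgeR estimate with its standard error, filled where the adjusted p was under 0.05. On the left values run from -2.04 to 1.77, and on the right from -0.37 to 0.73.

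Among the 4 families, the PKA subunits differed most in summed level, with 843 ± 6.86 TPM in Tg-RKIP hearts and 469 ± 2.88 TPM in FVB. Of the 6 genes, 3 regulatory subunits rose, and the other 3 fell with TMM, none of which fell with scaling to library size only. Of all genes tested, 36.8% were higher and 37.1% lower with TMM. Prkar1a, which encodes the regulatory subunit RI-alpha, lies on chromosome 11 from 109540231 to 109560482 (GRCm39, the build of the deposited coordinates). Its level was 591, 586 and 580 TPM in Tg-RKIP, 262, 269 and 260 TPM in the Tg-GRK2-labelled libraries and 265, 267 and 271 TPM in FVB. All 3 Tg-RKIP libraries lay above all other libraries, and it was the most abundant of the 52 genes in each group. The log2 fold change against FVB was 0.71 (standard error 0.017, edgeR adjusted p = 7.45e-20). Of its reads, 97.3% ± 0.657 in Tg-RKIP and 97.5% ± 0.825 in FVB were assigned to 1 transcript of 11 exons.

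The promoter of Prkar1a is shown because it held the full cAMP response element TGACGTCA, the site bound by CREB. Promoters were taken from RefSeq (GRCm38.p6) as windows of 300 bases, from 250 before to 50 after the start, and 43 of the 52 genes had at least 1 window. The element reads the same on both strands. It was found in 1.79% of the 32851 windows of all genes and in 2.03% of their 27025 gene symbols. Among the cAMP genes it was found in Prkar1a alone (1 of 43, or 2.33%), in 2 of 6 windows that overlap each other. The shorter TGACG was searched on both strands and is contained in the full element. By window it was in 20.8% of all and in 16 of the 85 of the cAMP genes (18.8%). By gene symbol it was in 23.0% of all and in 14 of the 43 cAMP genes (32.6%). The stretch below is chr11:109650699-109650948 (GRCm38.p6, plus strand), the 250 bases before the RefSeq start that lies 28 bases from that of the main Prkar1a transcript, with TGACG matches and the full element in capitals and 41 bases between the full element and the start.
Prkar1a: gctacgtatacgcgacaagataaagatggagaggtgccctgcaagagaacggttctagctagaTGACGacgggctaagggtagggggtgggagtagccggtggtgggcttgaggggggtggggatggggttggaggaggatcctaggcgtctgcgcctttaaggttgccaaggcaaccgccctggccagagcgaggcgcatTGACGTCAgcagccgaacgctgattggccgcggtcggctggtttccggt
A match of letters describes the sequence only, and binding was not measured.

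Prkar2b, which encodes RII-beta, the regulatory subunit known for its abundance in adipose tissue and brain, had the largest rise of the 45 genes. Its level was 10.03, 10.3 and 10.3 TPM in Tg-RKIP, 4.04, 3.55 and 3.68 TPM in the Tg-GRK2-labelled libraries and 1.97, 2.45 and 2.21 TPM in FVB. None of the 3 groups overlapped. It rose by 1.77 on the log2 scale in Tg-RKIP (standard error 0.077, edgeR adjusted p = 5.08e-15) and by 0.73 in the Tg-GRK2-labelled libraries (standard error 0.09, edgeR adjusted p = 2.54e-06). Summed over 6 adipocyte marker genes, the level was 928 to 953 TPM in Tg-RKIP, 517 to 550 TPM in the Tg-GRK2-labelled libraries and 595 to 626 TPM in FVB. All 6 of these markers rose in Tg-RKIP, and 5 of 6 rose and 1 fell in the Tg-GRK2-labelled libraries. The part of adipocyte RNA in the rise of Prkar2b was not tested.

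Prkar1b (RI-beta) rose to 5.55 ± 0.548 TPM in Tg-RKIP, from 1.65 ± 0.162 TPM in controls, a log2 fold change of 1.32 (standard error 0.129, edgeR adjusted p = 5.99e-09). The Tg-GRK2-labelled libraries had 1.83 ± 0.202 TPM and overlapped with FVB. Prkar2a (RII-alpha), the second most abundant regulatory subunit in each group, took the other direction. Its counts fell by 0.34 on the log2 scale in Tg-RKIP with TMM but gave 0.03 with scaling to library size only and 0.08 on log2(TPM + 0.1), with levels of 40.4 ± 1.46 TPM in Tg-RKIP hearts and 38.2 ± 0.588 TPM in FVB.

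The catalytic genes changed little in counts. Prkaca had 166, 164 and 166 TPM in Tg-RKIP hearts and 130, 131 and 127 TPM in FVB, and Prkacb had 35.2, 36.6 and 36.1 TPM in Tg-RKIP hearts and 29.5, 29.7 and 30.4 TPM in FVB. With TMM their log2 fold changes were -0.06 (edgeR adjusted p = 0.00608) and -0.14 (edgeR adjusted p = 7.84e-05). With scaling to library size only they were 0.31 and 0.23, so that the sign of the change in both catalytic genes rests on the scaling.

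A ratio within a library does not depend on scaling between libraries. The summed TPM of the 4 regulatory genes over that of the 2 catalytic genes was 3.22, 3.21 and 3.13 in Tg-RKIP, 1.85, 1.84 and 1.85 in the Tg-GRK2-labelled libraries and 1.93, 1.92 and 1.99 in FVB. Tg-RKIP hearts thus had more regulatory transcript for each catalytic transcript in all 3 libraries, and the other 2 groups lay close together without overlap. Prkar1a made up 91.2% ± 0.189 of the regulatory transcripts in Tg-RKIP and 86.4% ± 0.0773 in FVB, while the share of Prkar2a was 6.30% ± 0.155 and 12.3% ± 0.098. Within the catalytic pair Prkaca held 82.1% ± 0.418 in Tg-RKIP and 81.2% ± 0.422 in FVB. These sums are transcript levels in whole hearts and do not measure the protein or the kinase activity.

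**Figure D2:**
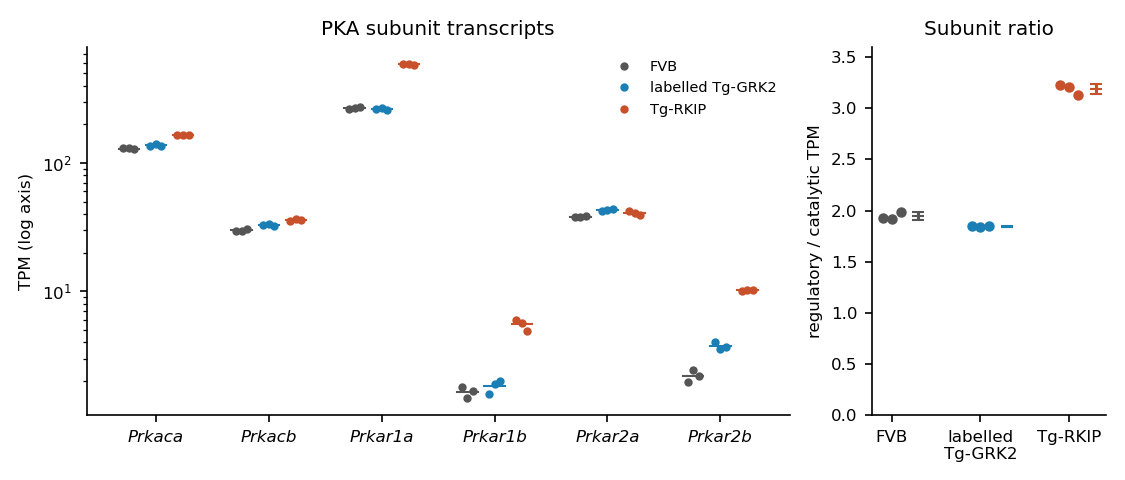
Left, level in TPM (log axis) of the 6 PKA subunit genes in each library, with a line at the group mean; right, summed regulatory over summed catalytic TPM in each library (points), with mean and SD of n = 3 beside them. Prkar1a, Prkar1b and Prkar2b lie higher in all Tg-RKIP libraries, and the ratio is 3.13 to 3.22 there against 1.84 to 1.99 in the other 6 libraries.

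Among the adenylyl cyclases, 3 of the 9 genes tested rose in Tg-RKIP, 5 fell and 1 was not called. Of all genes tested, 36.8% were higher and 37.1% lower. Summed over all transcripts of these genes, the level was 87.7 ± 2.42 TPM in Tg-RKIP, 95.1 ± 2.53 TPM in the Tg-GRK2-labelled libraries and 88.7 ± 1.72 TPM in FVB. On log2(TPM + 0.1) the median change of all genes between Tg-RKIP and FVB was 0.43. Adcy6 and Adcy5, the main cyclase genes of the cardiomyocyte, held 53.4% and 25.1% of this summed TPM in FVB and 49.0% and 26.6% in Tg-RKIP. Adcy6 had 44.0, 43.0 and 41.8 TPM in Tg-RKIP hearts and 48.3, 46.8 and 47.0 TPM in FVB, and its counts fell by 0.74 on the log2 scale (standard error 0.024, edgeR adjusted p = 3.00e-17). The levels and shares of Adcy6 include a shorter transcript annotated as retained intron, which took more of the gene's reads in Tg-RKIP than in FVB. The full-length transcript fell by 1.59 on the log2 scale. Both transcripts, which differ in length, are described further on. Adcy5 had 23.3 ± 0.177 TPM in Tg-RKIP hearts and 22.3 ± 0.507 TPM in FVB, and its log2 fold change was -0.35 with TMM (edgeR adjusted p = 5.09e-11) but 0.02 with scaling to library size only.

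Adcy9, which encodes a cyclase found widely in tissues and little stimulated by forskolin, had the largest fall among cyclases of more than 1 TPM. It lies on chromosome 16 from 4105393 to 4238362 (GRCm39). Its level was 2.05, 1.97 and 2.02 TPM in Tg-RKIP, 7.59, 7.79 and 7.39 TPM in the Tg-GRK2-labelled libraries and 6.29, 6.10 and 5.81 TPM in FVB. Tg-RKIP libraries were lowest and those labelled Tg-GRK2 highest, with no overlap between any of the 3 groups. Adcy9 fell by 2.02 on the log2 scale in Tg-RKIP (standard error 0.062, edgeR adjusted p = 9.62e-18) and rose by 0.27 in the Tg-GRK2-labelled libraries (standard error 0.048, edgeR adjusted p = 0.000196).

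Other cyclases changed from low levels. Adcy7, a cyclase of blood cells and macrophages, rose by 0.62 on the log2 scale, from 3.54 ± 0.115 to 7.30 ± 0.619 TPM. Adcy3, known for its role in olfactory neurons and adipocytes, rose by 0.48, from 1.79 ± 0.118 to 3.39 ± 0.53 TPM, and 1380 of its exon bases overlap with Cenpo on the other strand. Adcy1, a calcium-stimulated cyclase best known from the brain, fell by 0.79 on the log2 scale, to 1.39 ± 0.0689 from 1.85 ± 0.115 TPM. Adcy2 and Adcy8 were below 0.5 TPM in every library, and their log2 fold changes of 1.31 and -2.04 rest on few reads. Adcy2 lost its call without Tg-RKIP replicate 3 (1.04, adjusted p = 0.0552). Adcy4, of endothelial and other non-muscle cells, was not called (log2 fold change -0.13, edgeR adjusted p = 0.082), though it was without FVB replicate 2 (-0.19, edgeR adjusted p = 0.0198). Its direction turned with scaling to library size only (0.24) and with limma on log2(TPM + 0.1) (0.33), both called, and its levels of 7.13, 7.18 and 6.68 TPM in Tg-RKIP hearts lay above the 6.07, 5.10 and 5.52 TPM of FVB. The summed level of 5 macrophage markers was 263 to 271 TPM in Tg-RKIP and 104 to 105 TPM in FVB, all 5 rose, and their part in the rise of Adcy7 was not tested.

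Among the PDEs, 5 of 20 genes were called higher in Tg-RKIP and 11 lower with TMM, where 36.8% and 37.1% of all genes were, and 4 were not called. With scaling to library size only 6 were higher and 7 lower, and with limma on log2(TPM + 1) 7 of 19 were higher and 8 lower. Those scalings gave 9709 higher and 2650 lower of 15504 genes in all, and 8948 and 1953 of 13478. The summed level of the PDEs was 173 ± 3.38 TPM against 165 ± 2.54 TPM in FVB. PDE4 enzymes hydrolyse cAMP and are known as major PDEs of beta-adrenergic cAMP in the mouse heart, and 4 of 4 Pde4 genes fell in counts. Pde4a, the most abundant of them, had 19.97, 18.7 and 18.5 TPM in Tg-RKIP, 32.1, 30.6 and 30.4 TPM in the Tg-GRK2-labelled libraries and 23.0, 23.4 and 22.8 TPM in FVB. Tg-RKIP libraries were lowest and those labelled Tg-GRK2 highest, without overlap. Pde4a fell by 0.64 on the log2 scale in Tg-RKIP (standard error 0.032, edgeR adjusted p = 6.29e-14) and rose by 0.33 in the Tg-GRK2-labelled libraries (standard error 0.03, edgeR adjusted p = 3.44e-08).

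Pde4d, whose products associate with the beta-adrenoceptor and ryanodine receptor complexes, had 5.11, 5.42 and 5.96 TPM in Tg-RKIP against 9.86, 9.87 and 10.1 TPM in FVB. It fell by 1.33 on the log2 scale (standard error 0.059, edgeR adjusted p = 8.64e-15). Pde4c fell by 1.13, to 0.897 ± 0.136 from 1.41 ± 0.0279 TPM. Pde4b fell by 0.41 with TMM, whereas on log2(TPM + 0.1) it was 0.14 higher, and its levels were 15.6 ± 0.459 TPM in Tg-RKIP hearts and 14.1 ± 0.53 TPM in FVB. As a share of all PDE transcripts within a library, the 4 Pde4 genes made up 23.6% ± 0.162 in Tg-RKIP, 32.4% ± 0.139 in the Tg-GRK2-labelled libraries and 29.4% ± 0.732 in FVB.

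PDE1 enzymes, which are stimulated by calcium and calmodulin and hydrolyse both cAMP and cGMP, changed in opposite directions. Pde1c, the PDE1 of cardiomyocytes, had 10.4, 9.08 and 8.63 TPM in Tg-RKIP hearts and 18.0, 17.1 and 17.2 TPM in FVB. It fell by 1.30 on the log2 scale (standard error 0.035, edgeR adjusted p = 8.89e-19). Pde1a, found in smooth muscle and fibroblasts, had 12.5, 12.7 and 13.6 TPM in Tg-RKIP hearts and 6.92, 6.37 and 6.60 TPM in FVB, and it rose by 0.65 (standard error 0.054, edgeR adjusted p = 5.25e-10). Pde1b, of neurons and myeloid cells, rose by 1.44, from 0.735 ± 0.0636 to 2.69 ± 0.203 TPM (edgeR adjusted p = 1.65e-09). The order of Pde1a and Pde1c was thus exchanged, and the summed PDE1 level was 24.98 ± 0.699 TPM in Tg-RKIP hearts and 24.8 ± 0.748 TPM in FVB. The summed level of 5 fibroblast markers was 1913 to 1919 TPM in Tg-RKIP and 800 to 833 TPM in FVB, that of 5 smooth muscle and pericyte markers 843 to 862 and 422 to 438 TPM. Of these, 5 of 5 fibroblast markers rose, 3 of 5 smooth muscle and pericyte markers rose and 2 fell, and 5 of 6 cardiomyocyte markers fell, with a summed level of 35683 to 36194 TPM in Tg-RKIP and 34444 to 35293 TPM in FVB. The part of these cell types in the exchange was not tested.

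PDE3 enzymes are inhibited by cGMP and are the target of inotropic drugs such as milrinone. Pde3b, known for its role in insulin signalling in adipocytes, had 7.85, 7.57 and 7.47 TPM in Tg-RKIP hearts and 2.93, 2.87 and 3.32 TPM in FVB, with 3.01, 2.90 and 3.77 TPM in the Tg-GRK2-labelled libraries. It rose by 1.03 on the log2 scale in Tg-RKIP (standard error 0.057, edgeR adjusted p = 4.02e-13) and was not called in the Tg-GRK2-labelled libraries (0.07, edgeR adjusted p = 0.517). Of the 6 adipocyte markers given for Prkar2b, 6 rose in Tg-RKIP, and 5 rose and 1 fell in the Tg-GRK2-labelled libraries. Their part in the rise of Pde3b was not tested either. Pde3a, the PDE3 of the cardiac sarcoplasmic reticulum, had 14.4 ± 0.289 TPM in Tg-RKIP hearts and 13.6 ± 0.166 TPM in FVB, and its log2 fold change was -0.34 with TMM and 0.03 with scaling to library size only.

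Of the remaining PDEs, Pde6d was the most abundant PDE gene in FVB and in Tg-RKIP. Its product is a carrier of prenylated proteins rather than a hydrolase in its own right. It rose by 0.20 on the log2 scale, to 40.2 ± 3.61 from 26.2 ± 0.656 TPM. The cAMP-specific Pde8a rose by 0.31, to 13.7 ± 0.316 from 8.67 ± 0.449 TPM, while its paralogue Pde8b fell by 0.88, to 1.37 ± 0.164 from 2.13 ± 0.636 TPM. Pde7b, also cAMP-specific, fell by 0.84, to 10.02 ± 0.22 from 13.6 ± 0.594 TPM. Pde7a fell by 0.30 with TMM, to 9.75 ± 1.58 from 12.5 ± 1.25 TPM, but was 0.07 with scaling to library size only. Pde11a, which hydrolyses both nucleotides, fell by 1.68, to 1.25 ± 0.166 from 2.97 ± 0.299 TPM. Pde12, a mitochondrial 2',5'-phosphodiesterase that does not belong to the cyclic nucleotide enzymes, fell by 0.35 with TMM but was at 0.03 with scaling to library size only. Its levels of 2.83 ± 0.134 TPM in Tg-RKIP hearts and 2.70 ± 0.121 TPM in FVB overlapped, and 527 of its exon bases are shared with Arf4 on the other strand. Pde5a, Pde9a and Pde10a were not called with TMM and lay below 3 TPM in every library. Pde5a, at 0.12 with TMM, was called higher with scaling to library size only (0.49), and its level was 2.71 ± 0.0932 TPM in Tg-RKIP against 1.83 ± 0.177 TPM in FVB, without overlap. Pde9a and Pde10a changed sign with that scaling (0.18 each) and were not called there either.

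Pde2a, a PDE stimulated by cGMP, could not be measured well from these counts. Its reads were 29, 172 and 316 in the FVB libraries. The unnamed gene Gm45837 shares 3955 exon bases with it on the same strand, and the 2 genes together had 1063, 1108 and 986 reads in FVB, 1141, 1057 and 1221 in the Tg-GRK2-labelled libraries and 1200, 1519 and 1145 in Tg-RKIP. Pde2a alone gave a log2 fold change of -0.997 between Tg-RKIP and FVB that was not called (edgeR adjusted p = 0.072), and the 2 genes summed gave -0.08 (edgeR adjusted p = 0.063), a sum added after the data were seen. Without FVB replicate 1, the library of 29 reads, the reads of Pde2a gave -1.49 and the gene was called (edgeR adjusted p = 0.00189).

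**Figure D3:**
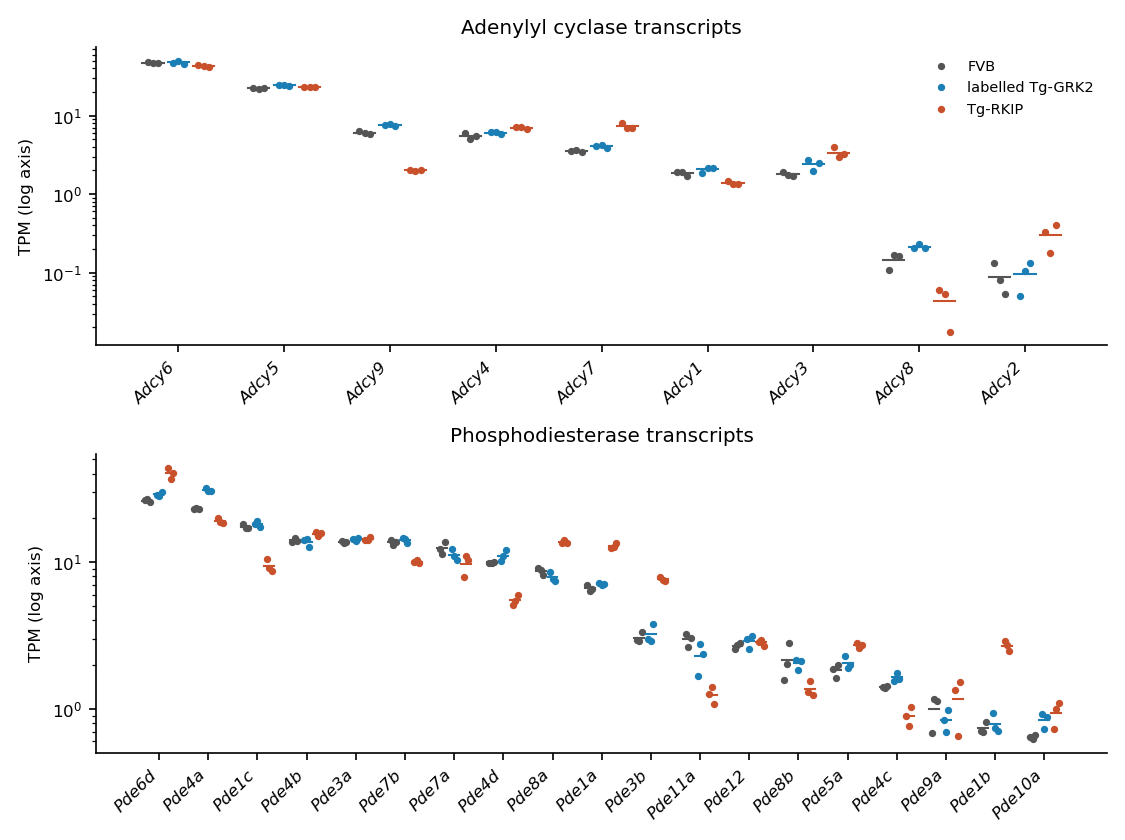
Level in TPM (log axis) of the adenylyl cyclase genes (top) and PDE genes (bottom) tested, in each library, ordered by the mean in FVB, with a line at each group mean; Pde2a is left out because its reads are shared with another gene. Adcy9, Pde1c and Pde4d lie lower and Adcy7, Pde1a, Pde3b and Pde1b higher in all 3 Tg-RKIP libraries than in the other 6.

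AKAPs mostly fell in counts with TMM. In Tg-RKIP 8 of 10 fell, Akap13 rose and Akap11 was not called, where 37.1% of all genes were lower and 36.8% higher. Akap9 (yotiao or AKAP450, which holds PKA at the KCNQ1 channel and the centrosome) fell by 1.15 on the log2 scale (standard error 0.032, edgeR adjusted p = 2.23e-18), but was at -0.12 and not called with limma on log2(TPM + 0.1) (adjusted p = 0.144). The transcript with the highest mean TPM alone gave -0.04, which was not called. It was not the long transcript described further on, which fell by 1.22. Akap7 (AKAP15/18, at the L-type calcium channel and phospholamban) had 22.4, 24.1 and 21.4 TPM in Tg-RKIP hearts and 34.8, 34.3 and 38.1 TPM in FVB, and fell by 0.93 (standard error 0.051, edgeR adjusted p = 3.19e-13). Akap6 (mAKAP, of the nuclear envelope of muscle cells) had 23.9, 23.6 and 22.2 TPM in Tg-RKIP hearts and 26.9, 25.7 and 26.2 TPM in FVB, and fell by 0.59 (standard error 0.023, edgeR adjusted p = 7.81e-16). For Akap7 and Akap6 the Tg-RKIP libraries lay below all FVB libraries in TPM as well. Akap5 (AKAP79/150, a membrane scaffold for PKA and calcineurin) fell by 0.83, to 0.513 ± 0.0246 from 0.682 ± 0.0547 TPM.

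Smaller changes in AKAP counts moved with the scaling too. Akap1 of the outer mitochondrial membrane, the most abundant AKAP gene, fell by 0.43 with TMM, but its levels of 49.1 ± 1.09 TPM in Tg-RKIP hearts and 49.6 ± 1.26 TPM in FVB overlapped, and scaling to library size only gave -0.05, which was not called. Akap8 (AKAP95 of the nucleus), Akap10 (D-AKAP2), Akap12 (gravin) and Akap13 (AKAP-Lbc, which is also a guanine exchange factor for RhoA) had log2 fold changes of -0.37, -0.40, -0.13 and 0.07 with TMM. With limma on log2(TPM + 0.1) Akap8, Akap10, Akap11 and Akap12 were at 0.02, 0.42, 0.67 and 0.29. On that scale 4 of 9 AKAPs rose and 2 fell, and with scaling to library size only 3 of 10 rose and 4 fell. Of all genes, 8889 of 13478 were higher and 1947 lower on that scale. With library size only, 9709 of 15504 were higher and 2650 lower. Akap13 lost its call without Tg-RKIP replicate 1 or 3 or FVB replicate 2 or 3, with a lowest value of 0.04.

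**Figure D4:**
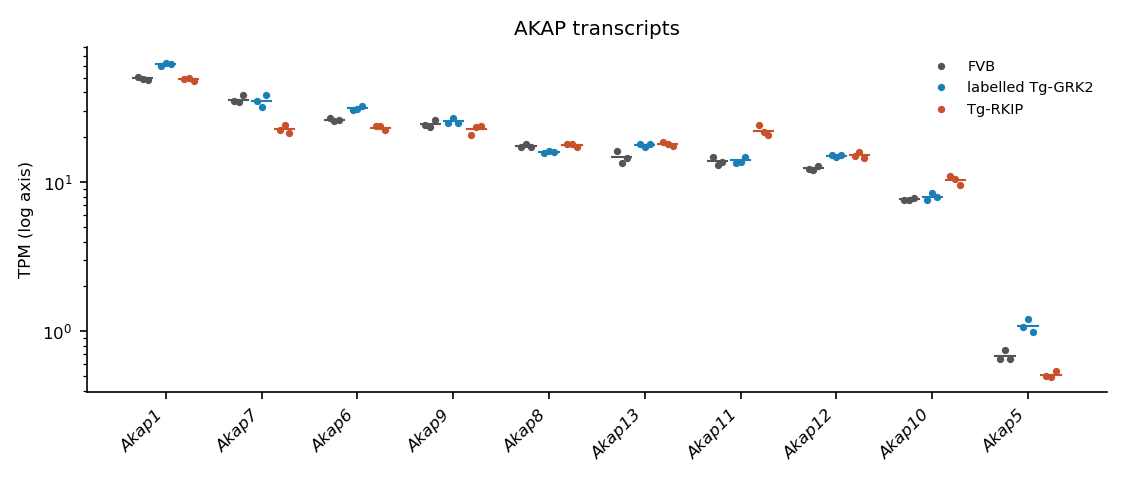
Level in TPM (log axis) of the 10 AKAP genes tested in each library, ordered by the mean in FVB, with a line at each group mean. Akap5, Akap6 and Akap7 lie lower in all 3 Tg-RKIP libraries than in FVB, and Akap10, Akap11, Akap12 and Akap13 lie higher. Akap1, Akap8 and Akap9 overlap between these groups on this scale.

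The change in counts moved with transcript length. Among all genes tested, the median log2 fold change between Tg-RKIP and FVB was 0.17 for the 5061 genes with a main transcript under 2000 bases, 0.05 for 6009 genes from there to under 4000 bases, -0.13 for 2743 genes from there to under 6000 bases and -0.34 for 1691 genes of 6000 bases or more. In the Tg-GRK2-labelled libraries the medians ran the other way, from -0.06 to 0.07. The cAMP genes are long, with 16 of 45 in the longest class, and in that class their median was -0.35 in Tg-RKIP, with 2 higher and 11 lower. Of all 1691 genes of that class, 317 were higher and 1073 lower. The part of transcript length in the fall of the AKAPs and other long cAMP genes was not tested.

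In the Tg-GRK2-labelled libraries, 12 of the 45 genes rose against FVB, 3 fell and 30 were not called, where 24.5% of all genes tested were called (12.2% higher and 12.2% lower). The 2 groups did not overlap in the normalised counts of 21 of the 45, against 37.1% of all genes. The changes were small, and the median over the cAMP genes was 0.08. AKAPs held 6 of the 12 rises. Akap1 had 60.5, 63.2 and 61.4 TPM against 51.0, 49.2 and 48.6 TPM in FVB and rose by 0.27 on the log2 scale (standard error 0.023, edgeR adjusted p = 1.44e-08). Akap5 rose by 0.61, Akap12 by 0.23, Akap13 by 0.19, Akap6 by 0.18 and Akap11 by 0.12, and Akap8 fell by 0.20. Besides Prkar2b, Pde4a and Adcy9, given above, Prkar2a rose by 0.12, Adcy5 and Prkacb by 0.09 each, Pde8a fell by 0.18 and Prkar1a fell by 0.07. Of these, Adcy5 lost its call without Tg-GRK2-labelled replicate 1 (0.076) or FVB replicate 2 (0.074), Akap11 without Tg-GRK2-labelled replicate 3 (0.080) or FVB replicate 3 (0.11), and Prkacb without replicate 1 or 2 of either group (0.073 to 0.083). With glmTreat of edgeR, set to a fold of 1.5, 0 of them were called. At an adjusted p under 0.05 and 1 on the log2 scale 0.929% of all genes were higher and 0.651% lower, and the largest change of a cAMP gene was that of Prkar2b.

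Between Tg-RKIP and the Tg-GRK2-labelled libraries, 10 of the 45 genes were higher in Tg-RKIP, 32 lower and 3 not called, where 74.5% of all genes were called (37.9% higher and 36.6% lower). Normalised counts did not overlap for 41 of the 45, against 76.4% of all genes. All 10 AKAPs tested were lower with TMM, whereas scaling to library size only gave 3 higher and 5 lower. Of all genes, that scaling gave 9606 of 15504 higher and 2851 lower. Changes of at least 1 on the log2 scale were called for 9.89% of all genes as higher and 6.91% as lower. The largest differences among the cAMP genes were those of Adcy8 (-2.57), Adcy9 (-2.29), Pde1b (1.49), Akap5 (-1.44), Pde4d (-1.39), Prkar1b (1.37) and Pde11a (-1.31) on the log2 scale. Pde1c (-1.29), Pde4c (-1.25), Akap9 (-1.17), Prkar2b (1.04) and Adcy2 (1.22) followed, together with the poorly measured Pde2a. Adcy2 lost its call without Tg-RKIP replicate 3 (0.95) or Tg-GRK2-labelled replicate 1 (0.92), and Pde2a lost its call without Tg-RKIP replicate 3 (-1.09) or Tg-GRK2-labelled replicate 2 (-0.90).

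Read counts of single transcripts added to the picture for a few genes. Of 363 transcripts listed for the cAMP genes, 118 from 44 genes were tested, and between Tg-RKIP and FVB 14 rose and 45 fell, where 34.0% of all transcripts tested were called, 19.0% of all as lower. Between the Tg-GRK2-labelled and FVB libraries edgeR called 4, each of them higher, where 3.42% of all transcripts were called (1.67% higher and 1.75% lower). In Adcy6, Akap13, Pde4b and Pde5a, transcripts of the same gene changed in both directions in Tg-RKIP. How many of all genes had such transcripts was not counted. Reads were short and single-ended, and how reads shared by transcripts were divided is not given in the sources used here.

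Adcy6 lies on chromosome 15 from 98487854 to 98507957 on the minus strand (GRCm39). Its full-length transcript of 22 exons took 32.1%, 34.9% and 35.5% of the gene's reads in Tg-RKIP, 65.8%, 61.5% and 66.6% in the Tg-GRK2-labelled libraries and 61.4%, 66.0% and 62.3% in FVB. A shorter transcript of 8 exons, annotated as retained intron, covers the 3' part of the gene from 98487873 to 98494857 and took 67.2%, 63.3% and 62.7% in Tg-RKIP, 27.6%, 29.7% and 28.2% in the Tg-GRK2-labelled libraries and 33.01%, 29.2% and 33.2% in FVB. The full-length transcript fell by 1.59 on the log2 scale (standard error 0.042, edgeR adjusted p = 6.31e-08), and the shorter one rose by 0.31 (standard error 0.067, edgeR adjusted p = 0.0085). The antisense gene Gm29331 shares 605 exon bases with Adcy6 and had 161, 288 and 165 reads in Tg-RKIP against 60, 101 and 46 in FVB hearts, and whether the counting used strand is not given in the sources used here. The part of antisense reads in the counts of the shorter Adcy6 transcript was not tested.

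In Akap10, too, a shorter transcript had a higher share. A transcript of 3 exons from the 3' part of the gene took 35.9%, 39.1% and 31.3% of the reads in Tg-RKIP and at most 4.62% in any other library, while the transcript of 15 exons fell by 0.96 on the log2 scale (standard error 0.061, edgeR adjusted p = 9.19e-06). The short transcript itself was not called (log2 fold change 3.79, edgeR adjusted p = 0.0971). In both Adcy6 and Akap10 the shorter transcript lies in the 3' part of the gene. Read coverage along transcripts and RNA quality were not examined, and their part in these shares was not tested. The same holds for the change of counts with transcript length given above. In Akap9 the transcript of 48 exons and 13123 bases fell by 1.22 (edgeR adjusted p = 1.49e-07), and a transcript of 718 bases annotated for nonsense-mediated decay held 10.1% ± 0.748 of the reads in Tg-RKIP and 4.56% ± 0.729 in FVB. Since that transcript is short, it weighs heavily in TPM, and the summed level of Akap9 was 22.6 ± 1.76 TPM in Tg-RKIP hearts and 24.6 ± 1.44 TPM in FVB.

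In Pde4a the 2 main transcripts start from different first exons. The transcript that starts at 21095399 on chromosome 9 (GRCm39) took 2.62%, 1.45% and 1.92% of the reads in Tg-RKIP, 17.7%, 15.6% and 15.2% in the Tg-GRK2-labelled libraries and 8.93%, 9.18% and 10.4% in FVB. It fell by 2.84 on the log2 scale in Tg-RKIP (standard error 0.231, edgeR adjusted p = 4.04e-05) and rose by 1.10 in the Tg-GRK2-labelled libraries (standard error 0.212, edgeR adjusted p = 0.034). The transcript that starts upstream at 21077010 fell by 0.48 and rose by 0.22 in the same comparisons.

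The reads of Akap13, with a log2 fold change of 0.07 as a gene, were assigned to different transcripts. The transcript of 38 exons took 44.5%, 60.5% and 46.9% of the reads in Tg-RKIP, 87.9%, 97.6% and 95.3% in the Tg-GRK2-labelled libraries and 96.4%, 96.7% and 95.8% in FVB. A transcript of 37 exons took 54.7%, 38.6% and 52.6% in Tg-RKIP and at most 9.01% in any other library. The first fell by 0.82 on the log2 scale (standard error 0.106, edgeR adjusted p = 0.00055) and the second rose by 5.81 (standard error 1.49, edgeR adjusted p = 0.0186). They differ in 2 places, an exon of 66 bases present only in the first (chromosome 7 from 75333142 to 75333207, GRCm39) and 12 bases at the end of a long exon present only in the second (75261297 to 75261308). These sequences are shown because they are all that separates the 2 transcripts. They were read from GENCODE M21 transcripts (GRCm38, plus strand, chr7:75683394-75683459 and chr7:75611549-75611560), both lie in coding sequence, and the differing bases are in capitals between 20 bases of flank in the transcript.
Akap13 exon of 66 bases: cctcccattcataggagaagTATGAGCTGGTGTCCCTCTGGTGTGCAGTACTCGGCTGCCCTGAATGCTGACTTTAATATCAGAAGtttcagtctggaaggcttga
Akap13 exon end of 12 bases: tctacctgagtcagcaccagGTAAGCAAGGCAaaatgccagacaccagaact

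**Figure D5:**
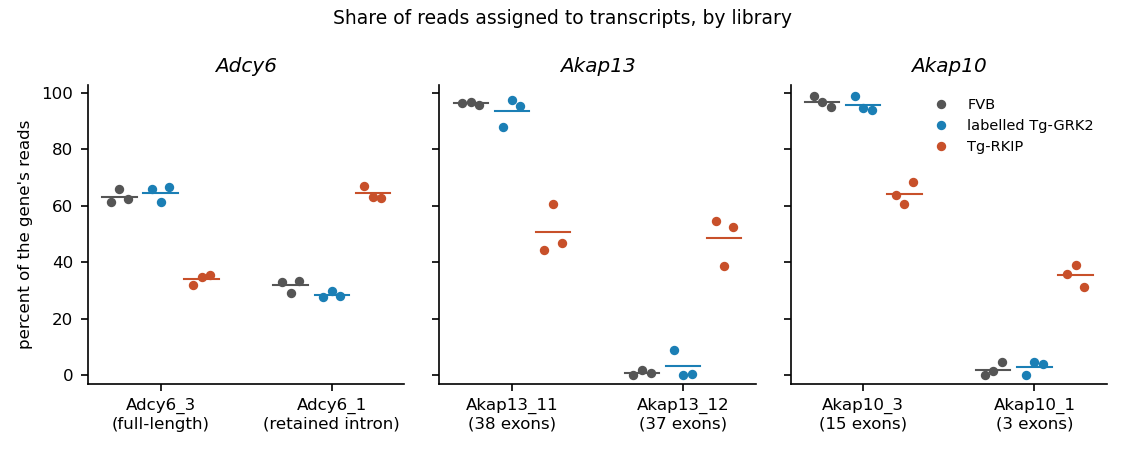
Percent of a gene's reads assigned to the 2 main transcripts of Adcy6, Akap13 and Akap10 (y axis) in each library, with a line at each group mean. In all 3 genes the Tg-RKIP libraries lie apart from the other 6, for example at 38.6% to 54.7% against at most 9.01% for the 37-exon transcript of Akap13.

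The neighbouring steps of the pathway were described with lists of genes other than the 52. Of 12 effectors of cAMP other than PKA and PKA inhibitors, 2 rose in Tg-RKIP and 8 fell (median log2 fold change -0.19), where 36.8% of all genes were higher and 37.1% lower. With scaling to library size only, 6 of them were higher and 4 lower (median 0.19). Of all 15504 genes, 9709 were higher and 2650 lower with that scaling. Hcn4, the pacemaker channel of the sinus node, and Pkia, a peptide inhibitor of the PKA catalytic subunit, fell by 2.19 and 1.38, with Pkia at 55.0 ± 1.55 TPM in Tg-RKIP hearts and 108 ± 0.955 TPM in FVB. Pkib, another PKA inhibitor, and the channel gene Hcn2 rose by 0.95 and 0.58. Of 18 PKA substrates and phosphatase genes, 4 rose and 12 fell with TMM (median -0.29) and 9 were higher and 8 lower with scaling to library size only (median 0.08), with Ryr2 (the ryanodine receptor) at -2.07 and Pln (phospholamban, the inhibitor of SERCA) at -1.34 as the largest falls and Rrad (a small G protein that restrains L-type calcium channels) at 0.50 and Mybpc3 (cardiac myosin-binding protein C) at 0.26 as the largest rises. Pln had 2246 ± 17.3 TPM in Tg-RKIP hearts and 4475 ± 78.7 TPM in FVB.

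Of 10 genes of the CREB family and its coactivators, 5 rose and 3 fell (median 0.10), and 7 were higher and 1 lower with scaling to library size only. For this and the next 2 lists, 36.8% of all genes were higher and 37.1% lower with TMM. With library size only, 9709 of all 15504 genes were higher and 2650 lower. Creb3l1 and Crem rose by 0.58 and 0.48 on the log2 scale, and the coactivators Ep300 and Crebbp fell by 0.78 and 0.33, Crebbp being at 0.04 with scaling to library size only. Of 16 tested genes for anchoring proteins and PDE partners with other names, 8 rose and 7 fell (median 0.03; 9 and 5 with scaling to library size only), among them the PKA-binding proteins Wasf1 (1.23), Rab32 (1.10), Cmya5 (-1.73) and Sphkap (-1.13). Of 9 tested guanylate cyclase, natriuretic peptide receptor and cGMP kinase genes, 3 rose and 4 fell (median 0.07; 6 and 2 with that scaling), with Npr1 at 0.30, Npr3 at 0.15, Gucy1a2 at -1.23 and Gucy2e, below 0.2 TPM in every library, at -4.13. Between the Tg-GRK2-labelled and FVB libraries 6 of 12, 6 of 18, 9 of 10, 11 of 16 and 7 of 9 genes of these lists were not called. Of all genes tested, 24.5% were called in that comparison. These lists were chosen by role with earlier results of these data known, and no test over a list was made.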

How the data were processed

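Hearts of 3 Tg-RKIP, 3 Tg-GRK2-labelled and 3 FVB mice were compared, grouped by their labels. The authors deposited whole-number read counts per transcript on GRCm39 (submitters' processing notes), and TPM values per transcript, deposited per library. Aligner, counter and annotation version are not given in the sources used here. Counts and TPM were summed by gene name. Counts (25458108 to 33447654 per library) were tested with edgeR 4.0.16 in R 4.3.3 (TMM, filterByExpr, quasi-likelihood, all 9 libraries in 1 fit, 15504 genes, Benjamini-Hochberg adjusted p under 0.05). The 118 transcripts were tested in the same way among 34991. limma 3.58.1 on log2(TPM + 0.1), DESeq2 1.42.0 and other scalings and filters were alternatives, and scripts were tested on simulated data. An exact permutation test of 3 against 3 cannot give a p under 0.1, so none is printed.

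Replicate numbers did not pair the libraries: correlations of same-numbered deviations were -0.04 to 0.05. Genes were named with a mean of at least 5 TPM in a group or a called log2 fold change of at least 0.5 in size, and for pathway lists the 2 largest rises and falls. Other statements on members name them after their values were seen. The members and lists were chosen with earlier results of these data known. Replicates were separate hearts, and p-values cover the spread between these libraries only. In edgeR the common biological coefficient of variation was 2.86%. Between libraries of the same group, the median chi-square per gene was 1.36 to 1.48 times that of counting noise. The chi-square summed over genes, per degree of freedom, was 18.99 and 23.21 between Tg-GRK2-labelled replicate 1 and replicates 2 and 3 of its group. Other pairs of the same group had 1.722 to 2.634.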

Additional observations from a re-analysis of the deposited data

How the results depend on the processing

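Between Tg-RKIP and FVB, TMM called 12 cAMP genes higher and 27 lower, and the split moved with scaling. Fewer were lower with library size only (15) and with limma on log2(TPM + 0.1) or log2(TPM + 1) (13 each, with 19 higher on the latter scale), and glmTreat at a fold of 1.5 called 5 higher and 12 lower. Among the 45 tested genes, directions that turned in a gene called in at least 1 of the 2 fits were, with library size only, Adcy4 (0.24), Adcy5 (0.023), Akap11 (0.34), Akap12 (0.24), Akap8 (0.0024), Pde12 (0.030), Pde3a (0.032), Pde7a (0.070), Prkaca (0.31), Prkacb (0.23) and Prkar2a (0.033); with library size without mitochondrial genes, Akap11 (0.14), Akap12 (0.043), Prkaca (0.11) and Prkacb (0.033); with limma on log2(TPM + 0.1) and log2(TPM + 1), Adcy4 (0.33 and 0.29), Adcy5 (0.065 and 0.063), Akap10 (0.42 and 0.39), Akap11 (0.67 and 0.64), Akap12 (0.29 and 0.27), Akap8 (0.022 and 0.021), Pde12 (0.067 and 0.051), Pde3a (0.072 and 0.068), Pde4b (0.14 and 0.13), Prkaca (0.35 and 0.35), Prkacb (0.27 and 0.26) and Prkar2a (0.081 and 0.079); and with the most abundant transcript alone, Adcy6 (0.24), Akap12 (0.90) and Akap13 (-0.89). The cause was not tested, beyond the shift of the median of all genes with scaling. The most abundant transcript was taken as that with the highest mean TPM over all libraries. For Adcy6 it was the shorter transcript annotated as retained intron, whereas the full-length transcript fell by 1.59.

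Between the Tg-GRK2-labelled and FVB libraries, glmTreat of edgeR called 0 higher and 0 lower where the test without a minimum fold called 12 and 3, limma called 0 lower at both pseudocounts (0.1 and 1), and the most abundant transcript alone gave 7 higher and 1 lower. Between Tg-RKIP and the Tg-GRK2-labelled libraries, 18 genes were higher with library size only and with limma at either pseudocount, against 10 with TMM, and 18 (library size only) and 15 (limma, both) were lower, against 32; glmTreat gave 5 and 15. For transcripts between Tg-RKIP and FVB, library size only gave 29 lower.

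Leaving out 1 library at a time gave 10 to 12 higher and 27 to 28 lower genes between Tg-RKIP and FVB, 10 to 11 and 3 to 5 (5 without FVB replicate 2) between the Tg-GRK2-labelled and FVB libraries, 9 to 11 and 31 to 32 between Tg-RKIP and the Tg-GRK2-labelled libraries, and 9 to 12 (9 without FVB replicate 1) and 35 to 41 transcripts between Tg-RKIP and FVB. Adcy5, Akap11 and Prkacb lost their call in the Tg-GRK2-labelled libraries in some of these fits, as did Adcy2 and Akap13 in Tg-RKIP. With the replicate number as a block, 45 of 45, 15 of 15 and 13 of 13 genes compared kept their direction and side of the threshold in the 3 comparisons.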
